A study of Mus musculus with 4 samples.

Results

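The genes examined here were 10 enzymes of threonine, serine and proline metabolism: Tdh, Gldc, Phgdh, Psat1, Psph, Shmt1, Shmt2, Aldh18a1, Pycr1 and Asns. They were taken as a named list of enzymes, whose choice used no threshold on their values, and were looked up through their Ensembl identifiers in a raw count table of 37620 genes and in a normalized table of 15462 genes that had passed a filter on low counts. All 10 were found in both tables. RNA was sequenced from R1 mouse embryonic stem cells (ESCs, strain 129/Sv), either wild type (WT) or lacking Cripto (Cripto KO), the coreceptor of Nodal that is encoded by Tdgf1. Each genotype was grown as ESCs in serum with leukaemia inhibitory factor (serum/LIF) or was converted towards epiblast stem cells by 6 days in F/A, which is N2B27 medium with bFGF and 20 ng/ml Activin A, starting from sparsely plated cells. This gave 4 libraries, 1 for each combination of genotype and medium: serum/LIF WT, serum/LIF Cripto KO, F/A WT and F/A Cripto KO. All libraries shared the R1 background. F/A differed from serum/LIF in the basal medium and its nutrients as well as in the growth factors, so the effects of medium, growth factor and cell state cannot be told apart. The labels do not say which Cripto KO clone was sequenced.

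Threonine dehydrogenase (Tdh) feeds threonine carbon to glycine and acetyl-CoA, and mouse ESCs in the naive state are known for depending on it. Serine is made from the glycolytic intermediate 3-phosphoglycerate by Phgdh, Psat1 and Psph in turn, and Shmt1 and Shmt2 split it into glycine and a one-carbon unit carried by folate, which the cell uses for purines, thymidylate and methylation. Proline is made from glutamate by Aldh18a1 and the reductases of the Pycr family, asparagine is made from aspartate by Asns, and in many cells these synthetic enzymes are transcribed under Atf4, the factor of the amino acid response.

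The libraries held 15230856 to 17315442 counts. In F/A Cripto KO only 3 of 18700 genes with counts had an odd count, and its counts were halved for every interval. The targeted gene Tdgf1 had 18714 (WT) and 945 (Cripto KO) counts in serum/LIF, and 1572 (WT) and 86 (Cripto KO) in F/A, so it was lower in the KO library of each medium. The 8 markers of naive ESCs summed to 4580 and 3982 CPM (counts scaled to the library total) in serum/LIF, WT first, and to 83.3 and 70.0 CPM in the F/A libraries, where Dppa3 and Nr0b1 were at 0. Markers of primed epiblast went from 255 and 285 CPM to 977 (WT) and 520 (Cripto KO) in F/A. Of the 7 primed markers past the filter, 6 were higher in F/A and 1 lower in WT. In Cripto KO 4 were higher and 3 lower, and Cldn6 alone went from 28.2 to 213 CPM. Markers of primitive streak and mesoderm (742 and 547 CPM) and of trophoblast (2270 and 2492 CPM) were also higher in the F/A libraries, given WT first. In serum/LIF neither list passed 89.2 CPM. The streak and mesoderm sums in F/A came mostly from 1 gene, T (574 and 356 CPM). Between the F/A libraries 4 of the 8 streak and mesoderm markers were higher in Cripto KO and 4 lower, with Hand1 at 12.9 (WT) and 110 (Cripto KO) CPM. The trophoblast sums in F/A came mostly from 2 keratins, Krt8 (1280 and 1391 CPM) and Krt18 (957 and 1028 CPM). Of its other markers past the filter, Cdx2, Gata3 and Plac1 were higher in F/A in both genotypes, and Tfap2c and Ascl2 were lower. Such sums do not show which cells were present, and the part of other cell types in the F/A values was not tested.

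Levels below are the deposited quantile-normalized counts, and a log2 change is the log2 ratio of 2 of them. With 1 library per condition no test across samples was possible. Beside a change stands the 95% interval of the ratio of raw counts, scaled by the library totals, which covers counting error only and not the spread between cultures. A gene with more counts passes its interval at a smaller difference, so shares of all genes by the interval are not a background of equal depth. A gene was counted as called at a 2-fold difference in normalized values. A gene with no counts was given the bound that 3 counts allow, or 6 in F/A Cripto KO. In bulk RNA, fewer cells that express a gene and less RNA of it in each cell cannot be told apart.

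In normalized values, WT cells mostly had less of these transcripts after the move to F/A, whereas in Cripto KO the changes were divided between both directions. The pattern in WT depended in part on transcript length. In WT, 9 of 10 were lower and Phgdh alone was higher, where 52.5% of all genes were lower and 47.3% higher. For 8 of the 9 and for Phgdh the counting interval excluded 1, as it did for 42.4% of all genes downward and 40.6% upward. Of the 10, 2 (Tdh and Shmt1) were at least 2-fold lower and 0 were 2-fold higher, where 20.9% and 22.1% of all genes were. In Cripto KO, 3 of 10 were at least 2-fold lower (Tdh, Gldc and Shmt1) and 0 were 2-fold higher, against 19.4% and 19.9% of all genes. The other direction was more often seen in KO: 6 of 10 were higher with an interval above 1 and 4 were lower, against 37.3% and 38.4% of all genes. The share of 2-fold decreases among the enzymes thus lay near that of all genes in WT, at 2 of 10. The median log2 change of the 10 enzymes was -0.31 in WT and 0.08 in Cripto KO, beside -0.07 for all genes with either genotype. With the trend of the change with median transcript length subtracted, the medians were -0.08 and 0.17, and Psat1, Psph and Asns turned positive in WT. On the exon union length, the length of all exons joined, the medians were -0.22 and 0.10, and of these 3 genes Asns alone turned positive. Together the enzymes took 0.253% of the counts of serum/LIF WT, 0.254% of serum/LIF Cripto KO, 0.198% of F/A WT and 0.250% of F/A Cripto KO.

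**Figure D1:**
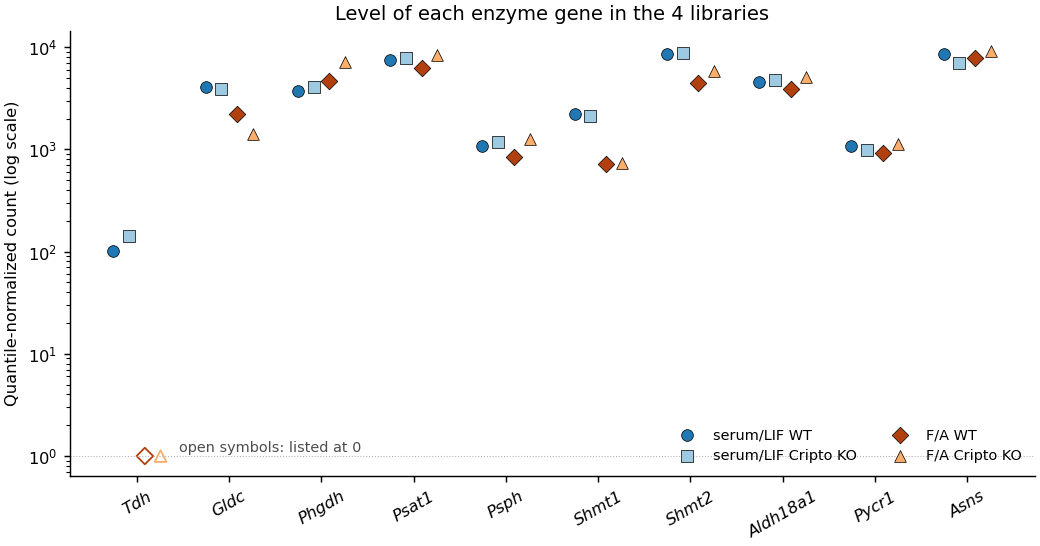
Quantile-normalized count (log scale) of each enzyme gene in each of the 4 libraries, 1 point per library; open symbols mark genes listed at 0. Tdh had counts in serum/LIF only, Gldc, Shmt1 and Shmt2 were highest in the 2 serum/LIF libraries, and Phgdh was highest in F/A Cripto KO.

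**Figure D2:**
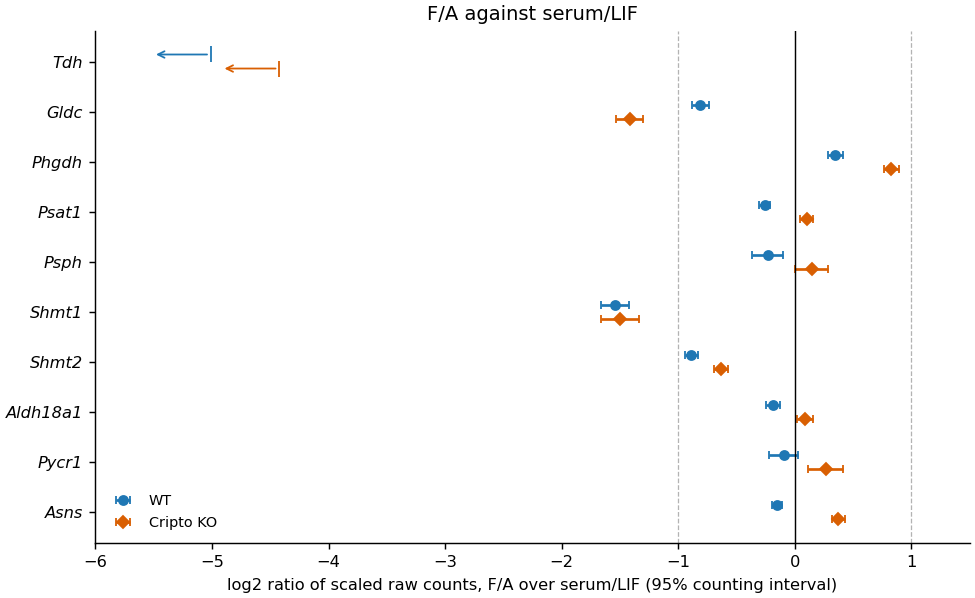
The log2 ratio of scaled raw counts, F/A over serum/LIF, for each enzyme in WT and in Cripto KO, with 95% counting intervals; dashed lines mark a 2-fold change and arrows mark the bounds of Tdh, at least 32.3-fold lower in WT and 21.5-fold lower in Cripto KO. For every gene drawn with an interval except Gldc, the Cripto KO point lies to the right of the WT point.

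The largest difference was at the head of threonine breakdown. Tdh (ENSMUSG00000021953, chr14:64111184-64127929 of NCBIM37, minus strand) had a normalized count of 101 (WT) and 141 (Cripto KO) in serum/LIF and was listed at 0 in both F/A libraries. Set against a floor of 3 counts (6 in F/A Cripto KO), it was at least 32.3-fold lower in F/A in WT and at least 21.5-fold lower in Cripto KO. The counting interval of the ratio, which also holds the error of the serum/LIF counts, reached up to 0.0388 in WT and 0.0581 in Cripto KO, and no fold between the genotypes can be given in F/A. In serum/LIF the Tdh ratio of KO to WT was 1.29, with an interval of 0.993 to 1.67 that included 1. Tdh rested on raw counts of only 110 and 133, whereas a transcript on the opposite strand, Gm17232 (chr14:64112536-64118709, plus strand), had 1425 (WT) and 1379 (Cripto KO) raw counts in serum/LIF, and 6 (WT) and 0 (Cripto KO) in F/A. This neighbour, singled out after its values were seen, shares 66 exon bases with Tdh and followed the same pattern. Whether the counting used strand is not given in the sources used here, so reads of Tdh and Gm17232 cannot be told apart where they overlap.

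Gldc, the glycine decarboxylase of the mitochondrial glycine cleavage system (ENSMUSG00000024827, chr19:30172939-30249908), was the only enzyme with both a clear F/A decrease and a lower level in Cripto KO. Its normalized count was 4081 (WT) and 3862 (Cripto KO) in serum/LIF, and 2221 (WT) and 1420 (Cripto KO) in F/A. The log2 change on entering F/A was -0.88 in WT (count ratio interval 0.541 to 0.601) and -1.44 in Cripto KO (0.345 to 0.406), and KO against WT gave -0.65 in F/A (0.579 to 0.688) but -0.08 in serum/LIF (0.921 to 1.005). The libraries thus fell in the order serum/LIF, F/A WT, F/A Cripto KO, with the 2 serum/LIF libraries not separated by counting error.

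Other genes of this route were mostly lower in F/A as well, but Gldc alone was lower in F/A Cripto KO than its WT partner. Of 8 further genes of threonine and glycine breakdown, 6 passed the filter on low counts; 4 were at least 2-fold lower in F/A in WT (20.9% of all genes) and 3 in Cripto KO (19.4%). Tha1, a threonine aldolase, had a log2 change of -3.22 in WT. Gcat, which takes the product of Tdh to glycine, changed by -1.41 in WT (raw counts 992 to 345) and -1.05 in Cripto KO (890 to 448). Amt, the aminomethyltransferase partner of Gldc, changed by -1.24 and -1.10. The carrier protein Gcsh changed by -0.62 in WT and -0.09 in Cripto KO, and the dehydrogenase Dld, which also serves other complexes, by 0.02 and 0.43. Between the F/A libraries all 6 were higher without Cripto, 3 of them with an interval above 1, with a median log2 difference of 0.28. By the interval 24.4% of all genes were higher and 26.7% lower, and this difference moved with transcript length, as given below.

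The 3 enzymes of serine synthesis each had their highest level in F/A Cripto KO, as did Aldh18a1, Pycr1 and Asns. Phgdh, which commits 3-phosphoglycerate to serine (ENSMUSG00000053398, chr3:98117093-98143913), had a normalized count of 3752 (WT) and 4079 (Cripto KO) in serum/LIF, and 4637 (WT) and 7103 (Cripto KO) in F/A. Its log2 change in F/A was 0.31 in WT (interval of the ratio 1.22 to 1.33) and 0.80 in Cripto KO (1.70 to 1.86), and KO against WT in F/A gave 0.62 (1.47 to 1.61). All neighbours in its order of libraries differed beyond counting error. Phgdh was the largest positive difference between the genotypes in F/A among the 10 enzymes.

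Psat1, the aminotransferase of the second step (ENSMUSG00000024640, chr19:15979168-16021827), had normalized counts of 7498 (WT) and 7852 (Cripto KO) in serum/LIF, and 6201 (WT) and 8273 (Cripto KO) in F/A. It was lower in F/A in WT (log2 change -0.27, interval of the ratio 0.808 to 0.864) and slightly higher in Cripto KO (0.08, 1.03 to 1.11). Psph, the phosphatase of the last step (ENSMUSG00000029446, chr5:130271434-130293129), had 1082 (WT) and 1189 (Cripto KO) in serum/LIF, and 850 (WT) and 1262 (Cripto KO) in F/A. For both genes F/A WT was thus the lowest library and F/A Cripto KO the highest. KO against WT in F/A gave a log2 difference of 0.42 for Psat1 (1.29 to 1.40) and 0.57 for Psph (1.30 to 1.61), beside 0.07 and 0.14 in serum/LIF.

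Both serine hydroxymethyltransferases were lower in F/A, in WT and in Cripto KO. Shmt1, the cytosolic form (ENSMUSG00000020534, chr11:60601606-60625220), had normalized counts of 2200 (WT) and 2103 (Cripto KO) in serum/LIF, and 712 (WT) and 731 (Cripto KO) in F/A. The log2 change was -1.63 in WT (interval of the ratio 0.315 to 0.374) and -1.52 in Cripto KO (0.316 to 0.395). Shmt1 followed the medium: within each medium the genotypes overlapped in counting error, with a ratio of KO to WT of 1.01 in F/A (0.885 to 1.15) and 0.979 in serum/LIF (0.923 to 1.04). Its last exon overlaps that of Smcr8 on the other strand by 184 bases, and Smcr8, with 1382, 1779, 1357 and 848 raw counts in the same order of libraries, did not follow its pattern.

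Shmt2, the mitochondrial form (ENSMUSG00000025403, chr10:126954195-126959491), had normalized counts of 8493 (WT) and 8799 (Cripto KO) in serum/LIF, and 4469 (WT) and 5771 (Cripto KO) in F/A. The log2 change of -0.93 in WT (interval of the ratio 0.521 to 0.561) lay just short of 2-fold, and that of -0.61 in Cripto KO (0.618 to 0.673) was smaller. In F/A, Shmt2 was higher in Cripto KO than in WT by 0.37 (1.21 to 1.33). Shmt2 shares 14 exon bases with Ndufa4l2 on the other strand, which had 343 (WT) and 261 (Cripto KO) raw counts in serum/LIF, and 10 (WT) and 2 (Cripto KO) in F/A, few beside those of Shmt2.

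Among 17 folate one-carbon enzymes, all past the filter, 5 were at least 2-fold lower and 1 was 2-fold higher in F/A in WT (20.9% and 22.1% of all genes), and 1 lower and 1 higher in Cripto KO (19.4% and 19.9%). The gene that was higher in both was Mthfd2l, a mitochondrial methylene-tetrahydrofolate dehydrogenase, with raw counts of 19 (WT) and 31 (Cripto KO) in serum/LIF, and 142 (WT) and 152 (Cripto KO) in F/A. Its paralogue Mthfd2, which works beside Shmt2, changed by only -0.12 in WT and -0.06 in Cripto KO and was higher in KO in both media, by 0.38 in F/A and 0.32 in serum/LIF. Mthfd1l, the mitochondrial formate-producing synthetase, changed by 0.19 and 0.07. The largest decreases were those of Mtfmt, which formylates the mitochondrial initiator tRNA (-1.39), and Atic, of purine synthesis (-1.27), in WT, and Tyms, the thymidylate synthase (-1.04), in Cripto KO. Over the list the log2 change had a median of -0.68 for WT and -0.43 for Cripto KO, but with the trend of the change with transcript length subtracted these were -0.26 and -0.36, so that the WT median was no longer the lower of the pair.

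The 2 proline enzymes differed little between media and were highest in F/A Cripto KO. Aldh18a1, the bifunctional synthase that turns glutamate into the proline precursor (ENSMUSG00000025007, chr19:40624747-40662953), had normalized counts of 4584 (WT) and 4778 (Cripto KO) in serum/LIF, and 3886 (WT) and 5077 (Cripto KO) in F/A. The log2 change was -0.24 in WT (interval of the ratio 0.841 to 0.916) and 0.09 in Cripto KO (1.01 to 1.11), and KO against WT in F/A gave 0.39 (1.21 to 1.34). Pycr1, the mitochondrial reductase that completes proline (ENSMUSG00000025140, chr11:120497026-120505083), had 1068 (WT) and 986 (Cripto KO) in serum/LIF, and 927 (WT) and 1137 (Cripto KO) in F/A. Its lower value in WT was not separated from counting error (0.856 to 1.02), whereas its higher value in Cripto KO (log2 change 0.21, 1.08 to 1.33) and its higher level in KO in F/A (0.29, 1.08 to 1.33) were.

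Other enzymes that lead to and from proline did not move as one. Pycrl, which encodes the cytosolic reductase, had raw counts of 399 (WT) and 368 (Cripto KO) in serum/LIF, and 304 (WT) and 652 (Cripto KO) in F/A, and was the one relative of the proline list past 2-fold in F/A between genotypes (log2 difference 1.06, interval of the ratio 1.77 to 2.43). Oat, which links ornithine to the proline precursor, changed by 0.00 in WT but 1.23 in Cripto KO, where its raw counts went from 821 to 1910. In WT they were 1250 in serum/LIF and 1186 in F/A, so Oat was lower in Cripto KO than in WT in serum/LIF and higher in F/A. Prodh, which degrades proline, was lower in F/A by -1.10 in WT and -1.46 in Cripto KO. Of 15 relatives of proline, glutamate, ornithine and asparagine metabolism 14 passed the filter. In F/A 12 of these 14 were higher without Cripto, 9 of them with an interval above 1, where 24.4% of all genes were. The median log2 difference was 0.34, without regard to the length trend given below.

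Asns, the asparagine synthetase (ENSMUSG00000029752, chr6:7625169-7643254), was the only one of the 10 enzymes in which the genotypes differed in opposite directions in the 2 media with both counting intervals excluding 1. Its normalized count was 8514 (WT) and 6960 (Cripto KO) in serum/LIF, and 7793 (WT) and 9056 (Cripto KO) in F/A. KO against WT gave a log2 difference of -0.29 in serum/LIF (interval of the ratio 0.816 to 0.868) and 0.22 in F/A (1.17 to 1.26). On entering F/A the log2 change was -0.13 in WT (0.872 to 0.928) and 0.38 in Cripto KO (1.25 to 1.34). All of these Asns differences were below 1.5-fold. With the length trend subtracted the KO against WT difference in F/A was 0.03 on the median transcript length and 0.10 on the exon union length, so its sign in F/A rests on a small value, while in serum/LIF it was -0.20 and -0.26.

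Promoters were read because the synthetic enzymes were higher together in F/A Cripto KO. RefSeq promoter windows (build GRCm38.p6, 250 bases before to 50 after the start) were found for 9 of the 10 enzymes, as 10 windows, and not for Tdh. The letters TGATGNAA, the core of the amino acid response element bound by Atf4 with a C/EBP partner, were searched on both strands. They occurred in 2 of the 10 windows, those of Asns and Pycr1 (2 of 9 genes), and in 3.97% of 32851 mouse promoter windows. The E-box CACGTG occurred in 1 of the 10 windows, that of Aldh18a1 (1 of 9 genes), and in 7.15% of all promoter windows. No searched motif overlapped another in these windows. The stretches are shown on the strand of the gene, here the minus strand, with the motif in capitals.
Asns, chr6:7693214-7693243, motif from position -23: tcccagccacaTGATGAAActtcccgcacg
Pycr1, chr11:120643833-120643862, motif from position -103: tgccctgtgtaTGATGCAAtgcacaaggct
Aldh18a1, chr19:40588504-40588533, motif from position -59: gagggggccgcCACGTGgagcgtgggcgcg
A match is a string of letters, and binding was not measured. Positions count from the start of transcription, with the last base before it as -1. Asns and Pycr1 had log2 differences of 0.22 and 0.29 between the genotypes in F/A. The enzymes whose windows held no TGATGNAA had 0.62 (Phgdh), 0.57 (Psph), 0.42 (Psat1), 0.39 (Aldh18a1), 0.37 (Shmt2), 0.04 (Shmt1) and -0.65 (Gldc). A link between motif and difference was not tested.

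The genotypes were compared within each medium. With 1 library of each, the effects of genotype, clone and culture cannot be told apart. In F/A, 8 of the 9 enzymes with a fold were higher in Cripto KO, 7 of them with an interval above 1, and Gldc was lower, whereas 48.8% of all genes were lower and nearly all others higher, and by the interval 24.4% were higher and 26.7% lower. Among genes with a mean of at least 50 raw counts, the interval gave 27.8% higher and 29.4% lower. That cut does not match the depth of the 9 enzymes, whose lowest count in F/A was 699 (Shmt1 in WT). A deeper gene passes its interval at a smaller difference, so the shares by the interval, in either medium, are not a background of equal depth. None reached 2-fold (0 higher and 0 lower, against 4.57% and 5.69% of all genes). The median log2 difference was 0.37 over the 9 enzymes and 0 over all genes. In serum/LIF 5 of 10 were higher by their interval (Phgdh, Psat1, Psph, Shmt2 and Aldh18a1) and 1, Asns, was lower, against 18.7% and 21.8% of all genes, and the median was 0.06. Without regard to the interval 6 were higher and 4 lower, against 49.7% and 48.9% of all genes. In that medium too none reached 2-fold, against 2.86% higher and 2.73% lower of all genes. The 2 F/A libraries also differed in marker levels: the 8 primed epiblast markers summed to 977 CPM in WT and 520 in Cripto KO, and the 6 fibroblast markers to 82.4 and 235 CPM, whereas in serum/LIF both fibroblast sums were 105 CPM. Their part in the F/A differences was not tested. The differences in serum/LIF were small, from -0.29 for Asns to 0.48 for Tdh, whose interval included 1.

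The difference of the log2 changes, Cripto KO transition minus WT transition, was above 0 with its interval in 7 of 9 enzymes and below 0 in 1. By the interval 24.2% and 24.6% of all genes were, again not a background of equal depth. None of the 9 reached a 2-fold difference, against 7.68% upward and 9.38% downward. The difference of the log2 changes was 0.51 for Asns (0.46 to 0.60), 0.49 for Phgdh (0.39 to 0.57), and -0.57 for Gldc (-0.74 to -0.47). With the length trend subtracted the Asns value was 0.22, and 0.36 on the exon union length. Over all settings tried, the smallest value was 0.08 for Psat1, 0.09 for Shmt2 and 0.20 for Psph. Shmt1 changed sign with the length trend subtracted, and the others kept theirs. For Shmt1 the interval, -0.16 to 0.24, included 0. These comparisons share libraries, F/A WT among them, so they are not independent of each other.

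**Figure D3:**
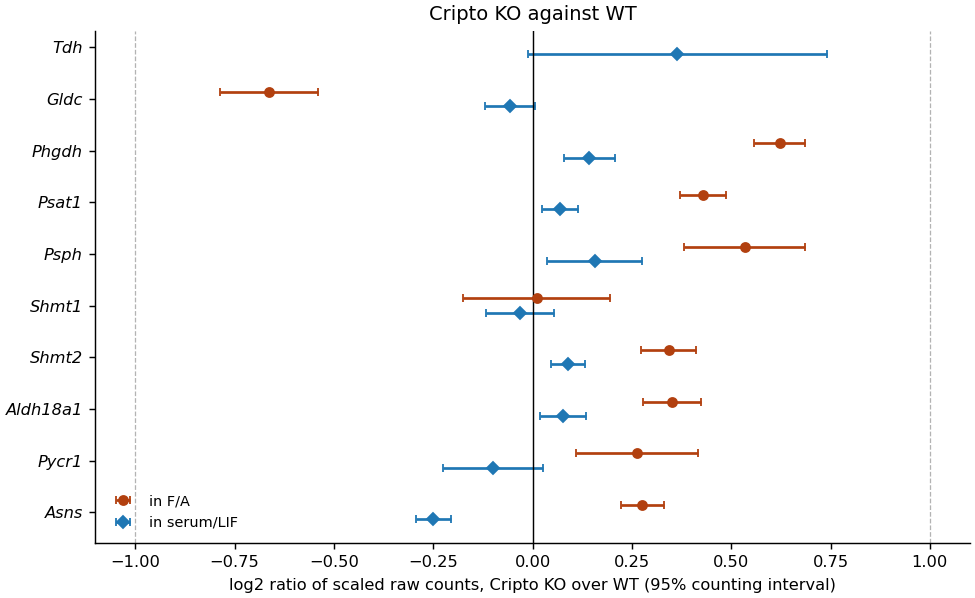
The log2 ratio of scaled raw counts, Cripto KO over WT, for each enzyme in F/A and in serum/LIF, with 95% counting intervals; dashed lines mark a 2-fold difference and Tdh has no value in F/A, where both libraries were at 0. In F/A 7 genes lie to the right of 0 with their intervals and Gldc to the left; in serum/LIF most points lie close to 0.

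The length of a gene moved with the difference in F/A. Over 9653 genes, the log2 difference of Cripto KO against WT in F/A had a Spearman correlation of -0.35 with median transcript length, given as a description across genes of the same 2 libraries. Its median was 0.18 in the eighth of genes with transcripts of at most 726 bases and -0.29 in the eighth of at least 4175 bases. Several of the enzymes have short annotated transcripts, such as Asns with a median of 568 bases. With the running median of length subtracted the enzymes' median in F/A was 0.25, on either the median transcript or the exon union length, and all but Shmt1 kept their direction. In WT, the transition median of -0.31 became -0.08 with the median transcript length and -0.22 with the exon union length, and Psat1, Psph and Asns turned positive with the first (0.19, 0.08 and 0.34).

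Levels between genes were compared as RPKM, counts scaled to the library total and the transcript length, computed here. Asns was highest in serum/LIF WT with 919 RPKM on the median transcript length, followed by Psat1 with 787, Phgdh with 355 and Shmt2 with 229, and Tdh was lowest with 7.3. On the length of all exons joined, the same 4 genes led but Shmt2 came first with 229 RPKM, ahead of Asns with 191, Psat1 with 109 and Phgdh with 91.9. In F/A Cripto KO the leading pair by that length was Asns with 208 RPKM and Phgdh with 180. The order within the leading genes therefore depends on the length used, and the counting error of these levels is small beside that.

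Lists of wider amino acid genes were read for KO against WT in F/A, where by the interval 24.4% of all genes were higher and 26.7% lower. Of 20 cytosolic aminoacyl-tRNA synthetases, which load amino acids onto tRNA, 17 were higher in F/A without Cripto, 16 of them with an interval above 1. Their median log2 difference was 0.25. This median and those that follow are given without the length trend subtracted, although the difference in F/A moved with transcript length, as given above. Of 15 genes of the amino acid response, 14 were higher, 12 by their interval, with a median of 0.32, but in serum/LIF 14 of 15 were higher in Cripto KO as well (all 14 by their interval, against 18.7% of all genes), with a median of 0.39, and the difference of transitions had a median of -0.02. Atf4 itself had 5051 (WT) and 5790 (Cripto KO) raw counts in serum/LIF, and 6278 (WT) and 8436 (Cripto KO) in F/A, with log2 differences of KO against WT of 0.26 in serum/LIF and 0.35 in F/A. The amino acid response genes were thus higher in Cripto KO in both media, whereas the enzymes differed mainly in F/A.

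On entering F/A the lists parted. Aminoacyl-tRNA synthetases were lower in WT (median log2 change -0.46, or -0.17 with the length trend subtracted), with Dars, the synthetase for aspartate, lowest at -1.25, and in Cripto KO their median was -0.19. Amino acid response genes were instead higher, with medians of 0.51 in WT and 0.37 in Cripto KO; 5 of 15 were at least 2-fold higher in WT (22.1% of all genes), led by Vldlr, a lipoprotein receptor, at 3.06 and the factor Atf3 at 2.10, while the stress protein gene Nupr1 was at -2.04. In Cripto KO 2 of 15, Atf3 at 2.36 and Vldlr at 2.35, were 2-fold higher (19.9% of all genes) and Nupr1 was at -2.06. In the proline, glutamate, ornithine and asparagine list 3 of 14 were 2-fold lower in WT, near the 20.9% of all genes, with Ass1, the argininosuccinate synthase, at -3.49 and Asrgl1, an asparaginase, at -1.59. Ass1 was at -2.86 in Cripto KO, where 2 genes of the list were 2-fold lower (19.4% of all genes) and 1, Oat, was 2-fold higher (19.9%).

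In the methionine cycle and transsulfuration, where homocysteine takes up serine, 6 of 7 genes passed the filter. Cbs, the synthase that joins serine to homocysteine, had log2 changes of -4.50 in WT and -3.30 in Cripto KO, the largest of these lists, and Mtap, of methionine salvage, changed by 1.08 in Cripto KO. The median over this list was -0.30 for WT, -0.04 for Cripto KO, and 0.44 for KO against WT in F/A. With the length trend subtracted those of the transitions turned positive, to 0.02 for WT and 0.10 for Cripto KO. The 0.44 is given without the length trend subtracted. Of 12 carriers of small neutral amino acids 11 passed the filter. In WT 2 of them were 2-fold higher (22.1% of all genes), the cystine carrier Slc7a11 at 2.35 and the glycine carrier Slc6a9 at 1.04. In Cripto KO Slc7a11 (1.74) and Slc1a4 (1.17), which carries serine and alanine, were 2-fold higher (19.9% of all genes). Slc36a1, a proton-coupled carrier of proline and glycine, was the 1 carrier 2-fold lower, at -1.87 (19.4% of all genes). The carriers' median difference between genotypes in F/A was 0.07, also given without the length trend subtracted.

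**Figure D4:**
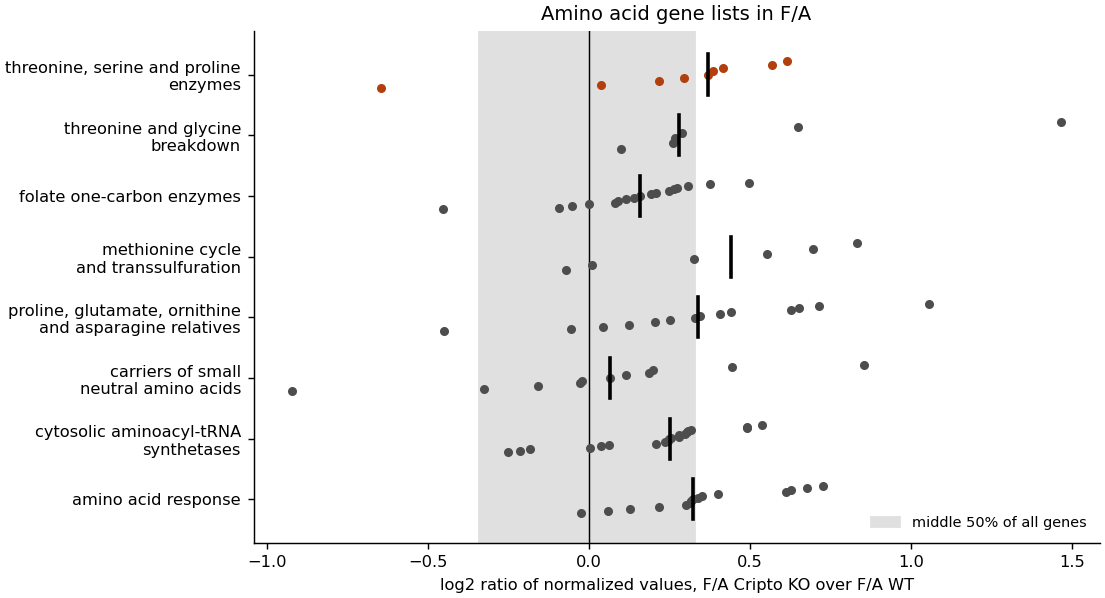
The log2 ratio of normalized values, F/A Cripto KO over F/A WT, for each gene of the 10 enzymes (coloured, 9 with a value) and of 7 other amino acid lists, 1 point per gene; black bars are list medians and the grey band holds the middle 50% of all genes. Medians lie from 0.07 for the carriers to 0.44 for the methionine list, and that of the enzymes is 0.37, all without the length trend subtracted.

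The genes whose pattern over the 4 libraries was most like that of an enzyme were sought among 9659 genes with a mean normalized count of at least 200, by the Euclidean distance between log2 values centred on each gene's own mean. Closest to Phgdh were Cks1b (0.024), Rab28 (0.053) and Cdkn1a (0.072). Closest to Aldh18a1 were Ube2j2 (0.024), Psat1 (0.032), the only other enzyme to appear, and Cnbp (0.033). Closest to Asns were Agpat1 (0.028), Nprl3 (0.029) and Ptpdc1 (0.051), and for Tdh the rule gave Slc11a1, Zfp936 and Hsf2bp, whose distances rest on the 0.5 put in place of its 0 counts in F/A and are not given. With 4 points per gene such likeness is a description only.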

How the data were processed

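RNA of the 4 libraries was sequenced on a HiSeq 2500. Per the paper's methods and the submitters' processing notes, the authors aligned reads to mm9 (NCBIM37) with TopHat2 2.0.13 and Ensembl 67 and counted them per gene with HTSeq 0.6.1p1 in intersection-nonempty mode. The deposited raw counts (counts per gene) were used. So was a second deposited table, a signal of quantile-normalized counts made by the authors with preprocessCore 1.28.0. After normalization the authors had filtered it at 1 CPM (NOISeq 2.8.0, RNASeqGUI 0.99.3). Quantile normalization of the raw counts gave the deposited values with a maximum difference of 0. It forces the libraries to 1 distribution, so a change shared by all genes cannot be seen.

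Gene names and coordinates came from the Ensembl 65 annotation of NCBIM37, which named 15424 of 15462 filtered genes. Folds were ratios of normalized counts, with 0 replaced by 0.5. The 95% Clopper-Pearson intervals of the ratios of raw counts, scaled by library totals, cover counting error only. In F/A Cripto KO counts were halved for them, since nearly all were even. The interval is centred on scaled counts, not on the normalized ratio, so the latter can lie at its edge or just outside it. Alternatives were other scalings (edgeR 4.0.16, DESeq2 1.42.0), filters, folds and transcript length. No test was run, and the scripts were tested on simulated data. The study's own simulation-based calls were not used.

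All 10 enzymes were named. Of each other list were named the direct partners of the enzymes and, per comparison, up to 2 genes in each direction with the largest change of at least 2-fold, an interval excluding 1 and at least 200 raw counts. A direct partner that the rule names is not reported here. The enzymes and the gene lists were chosen with earlier results of these data known.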

Additional observations from a re-analysis of the deposited data

Results flagged for a closer look

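Psat1, Psph, Aldh18a1 and Asns changed in opposite directions on entering F/A in the 2 genotypes, each with 1 library per condition, and the difference was not tested. The log2 change was -0.27 in WT and 0.075 in Cripto KO for Psat1, -0.35 and 0.086 for Psph, -0.24 and 0.088 for Aldh18a1, and -0.13 and 0.38 for Asns. With the length trend subtracted the WT change became positive, like that in Cripto KO, for Psat1 (0.19), Psph (0.081) and Asns (0.34); on the exon union length it did so for Asns alone (0.15). Aldh18a1 kept opposite directions under both.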

How the results depend on the processing

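No paired analysis was possible because each condition has 1 library and the labels carry no replicate numbers; for the same reason no library could be left out. At a fold of 1.5, 4 enzymes were lower in F/A in WT, 1 was higher in Cripto KO, and 1 was higher and 1 lower in Cripto KO than in WT in F/A. At a fold of 3, 1 was lower in F/A in Cripto KO. The shares of all genes at these other folds are not given here, so such counts have no background beside them. The median log2 change in WT was -0.25 with total-count scaling, -0.24 with TMM and -0.24 with DESeq2 size factors, in place of -0.31. With the length trend subtracted the medians were -0.082 in WT (-0.22 with the exon union length), 0.17 in Cripto KO, 0.25 for KO against WT in F/A (0.25 with the exon union length) and 0.22 for the difference of the transitions. The use of the exon union length was chosen after seeing the data. None of these medians changed sign under the settings tried. Levels of Tdh rest on 110 and 133 counts.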
